A study of Mus musculus with 12 samples.

Results

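The genes described here surround Hand2 on mouse chromosome 8. A gene was taken when its start lay within 10 Mb of the Hand2 start (GRCm38, 57320983), between 47320983 and 67320983, and when at least 10 expected counts were found in 3 or more of the 6 libraries of the Hand2 series. Hand2 itself, its antisense neighbour Hand2os1 and symbols ending in -ps with digits were left out. This gave 52 of the 53465 genes in the files. The files held 246 annotated genes in the window, of which 242 remained after the exclusions by name, and 190 of these were below the count minimum, 123 of them at 0 in all 12 libraries. Of the 52 genes, 39 code for protein, 4 are processed pseudogenes, 3 are lincRNAs, 2 are processed transcripts, 2 are long non-coding RNAs of bidirectional promoters, 1 is antisense and 1 is of the provisional type TEC. The minimum was reached in all 6 Hand2-series libraries by 47 genes and in 3 to 5 of them by the other 5.

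The study measured RNA in forelimb buds of Swiss albino mouse embryos, with 4 groups of 3 libraries and 1 pair of buds per library. In the Hand2 series, wild-type buds (Prrx1-Cre;Hand2+/+) and Hand2-deficient buds (Prrx1-Cre;Hand2Δ/Δc) were taken at E10 to E10.25, at 31 to 33 somites. Both of these groups carry Prrx1-Cre, a recombinase active in limb mesenchyme, so other cells of the bud are not targeted by it. In the Tbx3 series, wild-type buds and Tbx3-deficient buds (Tbx3ΔVenus/ΔVenus, with a Venus reporter and a transcription stop put into both copies of Tbx3) were taken at E9.75 to E10.0, at 28 to 31 somites. Tbx3 lies on another chromosome, so this series shows the same genes where the Hand2 locus was not targeted.

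HAND2 is a basic helix-loop-helix transcription factor of the posterior limb bud mesenchyme, where it acts upstream of Shh. Such factors bind DNA as dimers at E-boxes, short sites written CANNTG. Genes on one chromosome can share enhancers and regulatory domains, and Hand2os1 is a long non-coding RNA transcribed from the region upstream of Hand2. Embryos were grouped by the alleles they carry at Hand2, inside this window, so loss of HAND2 and other sequence inherited with the allele cannot be told apart for its neighbours.

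Promoters of 36 of the 52 genes were found in the RefSeq table (GRCm38.p6), as the 250 bases before the RefSeq start. Shown are those of the 4 genes with the lowest adjusted p in the Hand2 comparison among the genes with a promoter, 2 that were higher and 2 that were lower in deficient buds, so that they can be read beside the values given further on. They are written 5′ to 3′ on the strand of the gene, with each CANNTG in capitals. Gm34030 (chr8:57333740-57333989, minus strand, inside the span that GENCODE M21 gives the gene), Cbr4 (chr8:61487484-61487733, plus strand), Dctd (chr8:48098842-48099091, plus strand) and Tma16 (chr8:66486531-66486780, minus strand) read as follows.
Gm34030: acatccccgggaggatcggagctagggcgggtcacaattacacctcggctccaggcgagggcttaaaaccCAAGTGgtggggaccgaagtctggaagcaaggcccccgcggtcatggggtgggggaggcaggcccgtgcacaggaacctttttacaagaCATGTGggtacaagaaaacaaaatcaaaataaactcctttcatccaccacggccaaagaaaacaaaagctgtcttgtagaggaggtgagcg
Cbr4: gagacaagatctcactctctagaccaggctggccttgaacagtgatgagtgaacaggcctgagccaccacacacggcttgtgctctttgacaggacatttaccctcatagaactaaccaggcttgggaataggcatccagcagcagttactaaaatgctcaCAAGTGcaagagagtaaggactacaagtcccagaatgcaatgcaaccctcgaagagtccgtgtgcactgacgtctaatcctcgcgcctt
Dctd: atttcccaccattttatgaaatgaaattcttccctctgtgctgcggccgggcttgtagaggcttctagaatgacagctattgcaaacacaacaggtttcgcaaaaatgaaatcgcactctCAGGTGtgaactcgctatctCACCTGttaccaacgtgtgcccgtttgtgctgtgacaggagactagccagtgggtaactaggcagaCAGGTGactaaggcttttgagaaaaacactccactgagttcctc
Tma16: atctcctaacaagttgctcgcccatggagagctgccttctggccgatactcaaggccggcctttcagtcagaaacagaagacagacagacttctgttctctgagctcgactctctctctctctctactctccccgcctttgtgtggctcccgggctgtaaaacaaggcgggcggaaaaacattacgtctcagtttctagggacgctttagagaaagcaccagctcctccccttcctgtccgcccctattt
The window of Gm34030 held 2 matches, that of Cbr4 held 1, that of Dctd held 3 and that of Tma16 held 0. The pattern CANNTG is its own reverse complement, so both strands are covered, and it was found in 66.17% of all 27025 RefSeq promoters of the same length. It was found in 21 of the 36 promoters of neighbouring genes (58.33%), and in 6 of the 7 belonging to genes called in the Hand2 comparison. The form CATCTG on either strand, which is also a CANNTG match, was in 14.56% of all promoters, in 8 of the 36 and in 2 of the 7. These matches describe the letters of these windows only.

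Total counts were 60.2 to 68.6 M (1e6) in the Hand2 series and 23.3 to 31.8 M in the Tbx3 series. Hand2 fell from 121.9 ± 3.34 CPM (counts per 1e6 after TMM scaling, given as mean ± SD, n = 3) to 0.187, 2.21 and 0.384 CPM in the deficient libraries. In the Tbx3 series Hand2 was at 106.7, 99.1 and 116.6 CPM in wild-type and 87.2, 84.3 and 62.2 CPM in deficient buds. Every deficient library there lay below every wild-type one, but the difference did not pass the edgeR test (log2 -0.46, SE 0.126, adjusted p = 0.153). Markers of forelimb mesenchyme were present in all libraries, as were those of blood, endothelium, ectoderm and muscle progenitors. In the Hand2 comparison 3 of 6 mesenchyme markers (Prrx2, Twist1 and Lhx2), 1 of 5 endothelial (Cdh5), 2 of 5 macrophage and 1 of 4 body wall markers (Gata4) were called higher and 1 of 5 ectoderm markers (Fgf8) lower. The summed level of the body wall markers was 5.29 to 29.3 CPM in wild-type and 22.4 to 50.9 CPM in deficient buds. The part of these shifts in the changes of the neighbours was not tested. In RNA from whole buds, fewer cells of a type and less RNA per cell cannot be told apart. Embryos differed in sex: 1 of 3 wild-type and 2 of 3 deficient libraries of the Hand2 series were male by their sex-linked genes, and 0 of 3 and 2 of 3 in the Tbx3 series. Hand2-deficient library 1 stood apart by a high count on 1 ribosomal RNA gene, and results without it are given where they differ.

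In Hand2-deficient buds, most neighbours of Hand2 did not pass the test, and those that did moved in both directions. Among the 47 genes with at least 10 counts in all 6 libraries, 8 changed at an adjusted p under 0.05 (edgeR quasi-likelihood test, adjusted over all genes tested). The 5 that rose were Gm34030, Cbr4, Cpe, Apela and Wwc2, and the 3 that fell were Dctd, Tma16 and Ing2. Gm17994, March1 and Gm45827 were called higher too, which makes 11 of 52. But these 3 reached the count minimum in only 3 to 5 libraries, mostly deficient ones. Each of the 3 lost its call without deficient library 1, and also in other fits with 1 library left out. Over all 17488 genes tested, 10.5% were called, 4.68% higher and 5.82% lower. As the count minimum used the same 6 libraries, the share of neighbours called is a description beside these percentages. The median log2 fold change of the 47 genes was 0.05, and it was 0.01 over all genes tested.

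How many neighbours were called depended on single libraries. It was 3, 11 and 1 without wild-type library 1, 2 and 3, and 2, 5 and 2 without deficient library 1, 2 and 3, while the count over all genes moved between 218 and 2223 in the same fits. It was 2 with embryo sex as a covariate, Gm34030 and Cbr4, and all 526 genes called in that fit made up 3.01% of those tested. Gm34030 alone was called in every fit tried, which were 8 with other settings and 6 with 1 library left out.

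**Figure D1:**
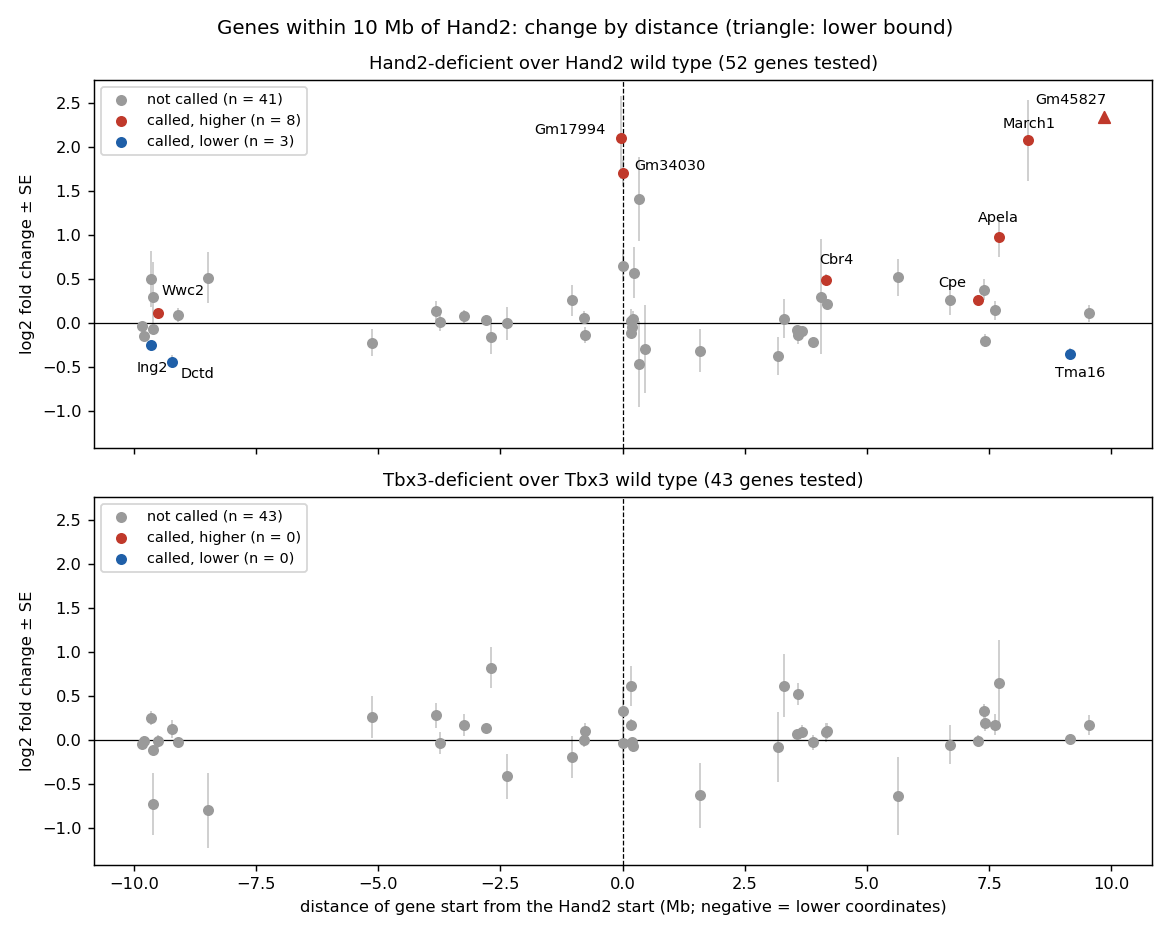
Log2 fold change (± SE, n = 3 per group) of each neighbouring gene against the distance of its start from the Hand2 start in Mb, for the Hand2 comparison (top, 52 genes) and the Tbx3 comparison (bottom, 43 genes). Red and blue points were called higher or lower, grey ones were not called, and the triangle marks Gm45827 at its lower bound of 5.09-fold, drawn on the log2 scale; 11 points are called at the top and 0 at the bottom.

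Among the genes counted in all 6 libraries, the largest change lay next to Hand2. Gm34030 (ENSMUSG00000109697), a lincRNA on the minus strand (57331692 to 57334585) that starts 0.011 Mb from the Hand2 start, was at 3.62, 2.75 and 4.02 CPM in wild-type buds and at 11.9, 11.4 and 10.5 CPM in deficient buds. Every deficient library lay above every wild-type library, and the mean rose 3.25-fold. The log2 fold change was 1.70 (SE 0.148, adjusted p = 0.00213) and ran from 1.56 to 1.82 when 1 library was left out, with adjusted p of at most 0.0118. The same RNA in the Tbx3 series was at 1.92 ± 0.348 CPM in wild-type and 1.87 ± 0.0136 CPM in deficient buds (SD, n = 3).

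5033428I22Rik (ENSMUSG00000097910), a lincRNA on the plus strand, starts beside Gm34030 and overlaps it by 2468 bp. Its counts and those of Gm34030 may be exchanged, as 67.3% of the 31-base words of Gm34030 also occur in it and the strand of the reads is not given in the sources used here. It was at 6.33, 5.71 and 3.73 CPM in wild-type and 7.77, 8.24 and 8.78 CPM in deficient buds, with a log2 difference of 0.65 (SE 0.189, adjusted p = 0.0685). The sum of both RNAs, which does not depend on that split, was 8.72 ± 1.12 CPM in wild-type and 19.5 ± 0.199 CPM in deficient buds (SD, n = 3), a 2.24-fold difference. In the buds of the Tbx3 series the sum was 5.26 ± 0.693 CPM in wild-type and 6.09 ± 1.26 CPM in deficient buds.

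On the lower-coordinate side, Gm17994 (ENSMUSG00000110327), a processed pseudogene, lies wholly inside Hand2os1 on the same strand. All of its 31-base words (100%) occur in Hand2os1, so reads of the 2 cannot be told apart. Words of Gm17994 occur in 28 genes in all, Hand2os1 among them, so part of its count may belong elsewhere. Gm17994 was at 0.175, 0.0728 and 0.333 CPM in wild-type and 0.883, 0.67 and 0.96 CPM in deficient buds, the higher group being the deficient one. Hand2os1 rose from 7.98 ± 0.973 to 22.9 ± 3.25 CPM (SD, n = 3; log2 fold change 1.52, SE 0.133, adjusted p = 0.00213). Together they were at 8.18 ± 0.961 and 23.8 ± 3.11 CPM, 2.91-fold apart. In the Tbx3 series Hand2os1 was at 6.31 ± 1.91 CPM in wild-type and 3.81 ± 0.925 CPM in deficient buds, a difference that did not pass the test (adjusted p = 0.265). Hand2os1 also overlaps Hand2 itself on the opposite strand.

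The next genes on either side did not pass the test. Fbxo8, an F-box protein gene, was at 14 ± 0.325 CPM in wild-type and 12.8 ± 1.43 CPM in deficient buds (adjusted p = 0.356). Cep44, which encodes a centrosomal protein, was at 19.3 ± 0.848 and 20.1 ± 1.47 CPM (adjusted p = 0.61), and Hpgd, the main prostaglandin-inactivating enzyme, at 4.74 ± 1.08 and 5.67 ± 0.466 CPM (adjusted p = 0.347). Gpm6a, a membrane glycoprotein best known from neurons, was at 1.6 ± 0.256 and 1.6 ± 0.251 CPM (adjusted p = 0.993). On the higher-coordinate side, Sap30, a subunit of the SIN3 histone deacetylase complex, was at 59.8 ± 2.16 and 55.5 ± 3.57 CPM (log2 difference -0.11, SE 0.0532, adjusted p = 0.207). 2500002B13Rik, transcribed next to Sap30 from the other strand, was at 2.1 ± 0.278 and 2.12 ± 0.0787 CPM (adjusted p = 0.94). Hmgb2, a chromatin protein of dividing cells, was at 759 ± 7.44 and 736 ± 27.6 CPM (log2 difference -0.05, SE 0.0407, adjusted p = 0.476). Of its 31-base words, 21.4% occur in other genes, mostly Gm4739, so part of its count may belong elsewhere.

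Enzymes of metabolism moved in both directions, with 1 of 8 genes of the list rising, 1 falling and 6 not passing the test (median log2 difference 0.09). In lists this short, 1 or 2 calls are read beside the 4.68% higher and 5.82% lower of all genes and set no list apart. Cbr4 (ENSMUSG00000031641, 61487734 to 61506694), a mitochondrial reductase of fatty acid synthesis, was at 10.6, 10.9 and 11.1 CPM in wild-type and 15.1, 14.8 and 15.7 CPM in deficient buds. Groups did not overlap, and the spread within each was below 0.5 CPM (SD 0.24 and 0.495, n = 3). It rose 1.40-fold (log2 0.49, SE 0.0662, adjusted p = 0.0113), and its adjusted p passed 0.05 in 1 of the 6 fits without a library, at 0.0537 without wild-type library 3. Dctd (ENSMUSG00000031562, 48099092 to 48153233), which deaminates dCMP on the way to thymidine nucleotides, was at 99.4, 84.2 and 99.99 CPM in wild-type and 69.3, 73.4 and 66.1 CPM in deficient buds. Wild-type library 2 was the lowest of its group and still above all deficient libraries. Its mean was 1.36-fold lower in deficient buds (log2 -0.44, SE 0.0737, adjusted p = 0.0205). The adjusted p of Dctd was above 0.05, up to 0.0836, without wild-type library 1 or 3 or deficient library 1 or 3, and was 0.0513 with sex as a covariate.

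Other enzymes gave smaller or more variable differences. Msmo1, a methylsterol oxidase of cholesterol synthesis, was at 48.7, 62.5 and 58.1 CPM in wild-type and 68.1, 84.7 and 67.7 CPM in deficient buds (log2 0.38, SE 0.117, adjusted p = 0.0773). All 3 deficient libraries were above the wild-type ones, but the spread was wide. Aga, a lysosomal enzyme that cleaves asparagine-linked sugars, was at 3.87 ± 0.277 and 4.26 ± 0.376 CPM, and Aadat, an aminotransferase of tryptophan breakdown, at 0.639 ± 0.095 and 0.494 ± 0.0527 CPM. Galnt7 and Galntl6 belong to the family that makes mucin-type sugar chains: Galnt7 was at 72.6 ± 7.23 and 75.1 ± 6.11 CPM, and Galntl6 at 0.407 ± 0.303 and 0.333 ± 0.0403 CPM.

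Of 9 genes of the nucleus and genome upkeep, 2 were called lower (5.82% of all genes were) and 0 higher, with a median log2 difference of -0.08. Tma16 (ENSMUSG00000025591, 66473118 to 66486530), a factor of ribosome assembly, was at 42.6, 38.3 and 41 CPM in wild-type and 29.2, 32.9 and 33.4 CPM in deficient buds. Its highest deficient library lay below its lowest wild-type library, and the mean was 1.28-fold lower (log2 -0.35, SE 0.0674, adjusted p = 0.0289). Ing2 (ENSMUSG00000063049, 47667178 to 47675556), which binds trimethylated lysine on histone H3 and joins the same SIN3 complex as Sap30, was at 19.7, 19.7 and 18.9 CPM in wild-type and 15.6, 16.7 and 16.6 CPM in deficient buds. The groups of Ing2 did not overlap, with a mean 1.19-fold lower in deficient buds (log2 -0.25, SE 0.0616, adjusted p = 0.0471). Ing2 lost its call whichever of the 6 libraries was left out (adjusted p 0.0739 to 0.135), and Tma16 lost it for each library except wild-type library 2 (up to 0.105). With embryo sex as a covariate the adjusted p was 0.0924 for Ing2 and 0.0676 for Tma16.

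The other 7 genes of that list did not pass the test. Besides Sap30 and Hmgb2 they were Nek1, a kinase of cilia and DNA repair, at 37 ± 0.511 and 34.7 ± 1.51 CPM (adjusted p = 0.222), and Hpf1, the partner of PARP enzymes in ADP-ribosylation, at 53.9 ± 0.679 and 51.1 ± 2.68 CPM (adjusted p = 0.28). Naf1, which assembles a class of small nucleolar ribonucleoproteins, was at 38.3 ± 3.74 and 41.3 ± 4.09 CPM (adjusted p = 0.452). The DNA glycosylase gene Neil3 was at 12.7 ± 0.672 and 12.8 ± 1.5 CPM, and Cdkn2aip, whose protein binds the ARF tumour suppressor, at 40.2 ± 0.639 and 38.3 ± 1.79 CPM.

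Of 10 genes for secreted, matrix, receptor and membrane proteins, 2 were called higher (4.68% of all genes were) and 0 lower, with a median log2 difference of 0.15. Both calls depended on single libraries. Cpe (ENSMUSG00000037852, 64592542 to 64693054), carboxypeptidase E, which trims prohormones, was at 45.6, 52.3 and 46.5 CPM in wild-type and 57.3, 57.7 and 58.5 CPM in deficient buds. The deficient libraries lay close together above all wild-type libraries, a 1.20-fold rise (log2 0.27, SE 0.0552, adjusted p = 0.0348). Apela (ENSMUSG00000079042, 65028417 to 65037336), a peptide ligand of the apelin receptor in early embryos, was at 0.444, 0.626 and 0.499 CPM in wild-type and 1.24, 0.975 and 0.901 CPM in deficient buds. At this low level the mean rose 1.98-fold (log2 0.98, SE 0.226, adjusted p = 0.0423), and 27.4% of its 31-base words also belong to Gm45886. Leaving out any library except wild-type library 2 ended the calls of both genes, with adjusted p up to 0.132 for Cpe and 0.144 for Apela. With sex as a covariate it was 0.0693 for Cpe and 0.0889 for Apela.

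The remaining 8 genes of this list did not pass the test. Palld, which bundles actin, was at 46, 50.4 and 47.9 CPM in wild-type and 59.3, 55.3 and 52.7 CPM in deficient buds (log2 0.21, SE 0.0554, adjusted p = 0.0536). The proteoglycan gene Spock3 was at 2.06, 3.71 and 3.19 CPM in wild-type and 4.45, 4.51 and 3.93 CPM in deficient buds (log2 0.52, SE 0.212, adjusted p = 0.141). Both had every deficient library above every wild-type library. Tll1, a metalloprotease of the BMP1 family, was at 2.62 ± 0.55 and 3.15 ± 0.216 CPM (adjusted p = 0.322), and Vegfc, the growth factor of lymphatic vessels, at 11.2 ± 0.482 and 11.8 ± 0.677 CPM (adjusted p = 0.533). Tenm3, a teneurin of cell adhesion, was at 249 ± 16.1 and 265.4 ± 25.4 CPM (adjusted p = 0.458), and the endosomal chloride exchanger Clcn3 at 27.6 ± 2.28 and 25.2 ± 3.36 CPM (adjusted p = 0.439).

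In the list of ubiquitin, trafficking and cell scaffold genes, 10 were counted in all 6 libraries. Of these, 1 was called higher (Wwc2) and 0 lower, and their median log2 difference was -0.08. March1 of the same list is given by its values with the low-count genes. Wwc2 (ENSMUSG00000031563, 47823959 to 47990924), a scaffold of the Hippo pathway, was at 76.9, 78 and 78.3 CPM in wild-type and 85.4, 85.1 and 82.2 CPM in deficient buds. This 1.08-fold rise (log2 0.12, SE 0.029, adjusted p = 0.0494) lay at the threshold and was lost in all 14 other fits, with adjusted p from 0.0504 to 0.189. That range includes the 6 fits without 1 library (0.076 to 0.167). Sh3rf1, a ubiquitin ligase and scaffold of JNK signalling, was at 31.7, 31.1 and 28.3 CPM in wild-type and 26.2, 25.4 and 27 CPM in deficient buds (log2 -0.21, SE 0.0606, adjusted p = 0.0651). Klhl2, a cullin adaptor, was at 26.4 ± 1.64 and 23 ± 1.31 CPM (log2 -0.20, adjusted p = 0.105), and Rwdd4a at 56.9 ± 1.41 and 51.6 ± 2.4 CPM (log2 -0.14, adjusted p = 0.0758). Spcs3, a subunit of the signal peptidase, was at 108.3 ± 3.32 and 111 ± 7.38 CPM (adjusted p = 0.686).

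**Figure D2:**
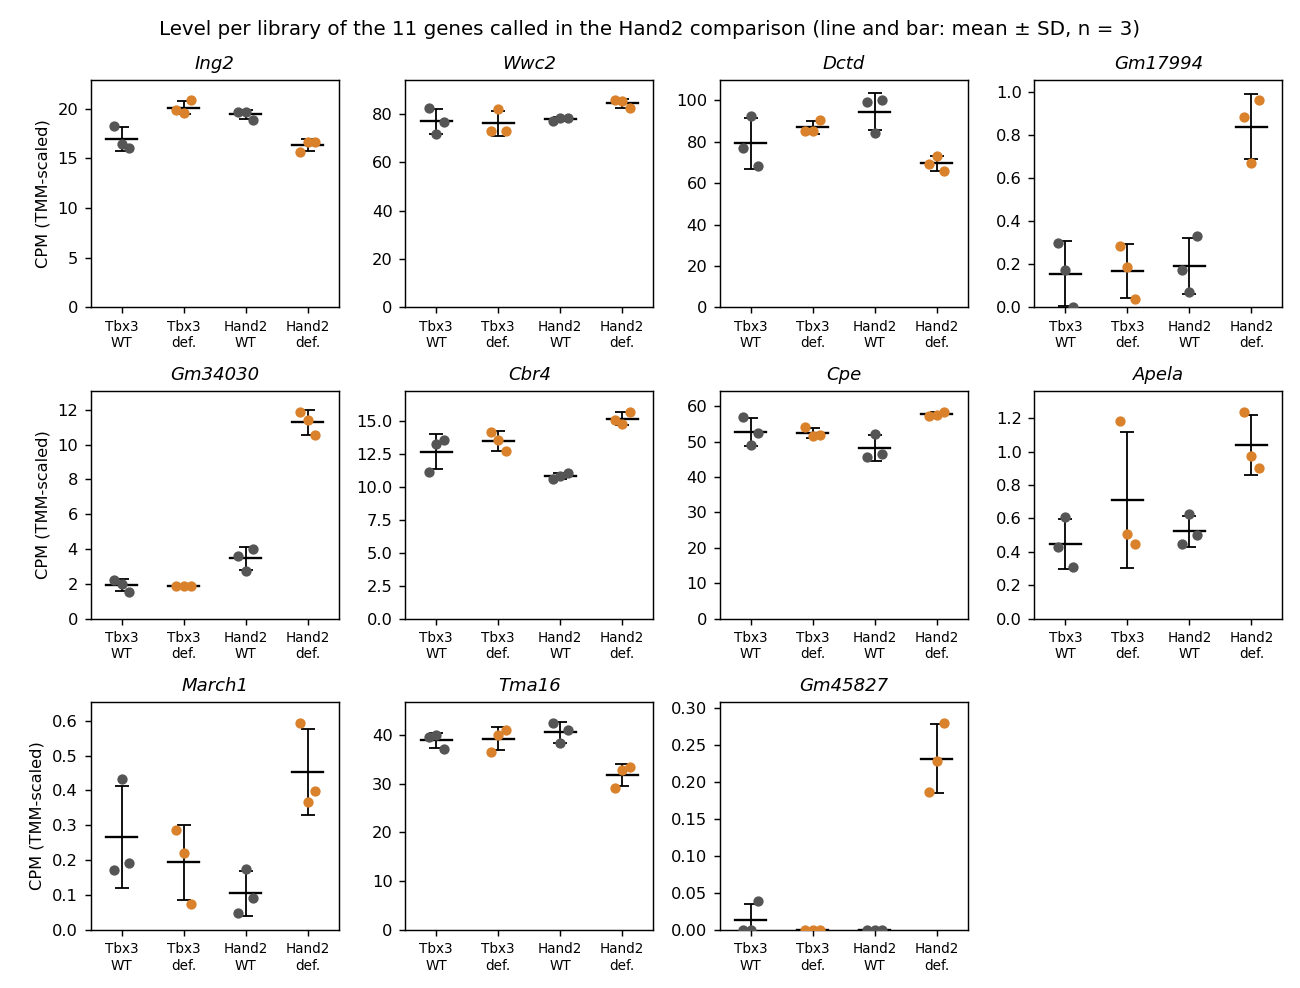
CPM of the 11 genes called in the Hand2 comparison, 1 panel per gene with its own axis from 0, 1 point per library and the mean ± SD (n = 3) as line and bar; grey is wild type and orange is deficient, in the Tbx3 and Hand2 series. In the Hand2 series the 2 groups of each gene do not overlap, and Gm34030, for example, is at 2.75 to 4.02 CPM against 10.5 to 11.9 CPM. The 11 genes were chosen by the test on these same libraries, so their lack of overlap is no separate result. Some neighbours that were not called, such as Palld and Spock3, did not overlap either.

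The 5 genes that reached the count minimum in 3 to 5 libraries are given by their values alone, since a gene that passes the minimum in deficient libraries only must differ between the groups. Gm45827 (ENSMUSG00000110512, 67176771 to 67177787), a lincRNA 9.86 Mb from the Hand2 start, had 0 counts in all 3 wild-type libraries and 11, 15.42 and 19 counts in deficient buds. Set against a floor of 3 counts per library, it was at least 5.09-fold higher, for counting error only, and it was the only gene of the window with no count in 1 group and some in every library of the other. Of its 31-base words, 66.9% occur in 18 other genes, most often Gm44017. In the Tbx3 series it had a count in 1 of 6 libraries, a wild-type one, at 0.0384 CPM. 4930412F12Rik had 3, 8.73 and 3.48 counts in wild-type and 14, 12.55 and 11.95 in deficient buds, and AW046200 had 15.08, 25.36 and 6.56 against 7.06, 11.55 and 14.11. Just under the minimum were Gm8623, Gm45553 and Asb5, whose third-highest counts were 9.48, 9 and 9.

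March1 (ENSMUSG00000036469), a ubiquitin ligase that removes MHC class II from the surface of immune cells, reached the minimum in 4 libraries. It was at 0.0476, 0.175 and 0.0907 CPM in wild-type and 0.594, 0.366 and 0.399 CPM in deficient buds. The deficient libraries were the higher ones, all below 1 CPM. Of the 5 macrophage markers, 2 (C1qb and Ptprc) rose in the same comparison and none was at 0 in all libraries. Their summed level was 3.73 to 5.56 CPM in wild-type and 6.75 to 13.1 CPM in deficient buds. In the Tbx3 series that sum was 1.39 to 4.19 CPM in wild-type and 5.62 to 7.12 CPM in deficient buds, with 0 of 3 tested markers called. March1 there was at 0.265 ± 0.146 CPM in wild-type and 0.193 ± 0.108 CPM in deficient buds (SD, n = 3). The part of these markers in the level of March1 was not tested.

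By distance, the calls lay far from Hand2 as well as beside it. Among the 47 genes counted in all 6 libraries, 1 of 13 was called within 2.5 Mb of the Hand2 start (Gm34030), 1 of 14 from 2.5 to 5 Mb (Cbr4), and 6 of 20 from 5 to 10 Mb. The outer genes were 3 of 11 on the lower-coordinate side (Ing2, Wwc2 and Dctd) and 3 of 9 on the other (Cpe, Apela and Tma16). All 6 of the outer calls were lost when one or another single library was left out, as was that of Cbr4. Only Gm34030 kept its call in each of those fits. The sets beyond the window were cut at 10 counts in 3 or more libraries, a wider cut. Within the window that cut gives 2 of 16, 1 of 14 and 8 of 22 by distance, with Gm17994, March1 and Gm45827 added. Beyond the window, 12 of 182 tested genes between 10 and 20 Mb were called (6.59%). Farther along chromosome 8 it was 83 of 669 (12.4%), and on other chromosomes 1719 of 16388 (10.5%). These shares are set side by side without a test, as the genes of a stretch are few and not independent.

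Levels differed widely among the neighbours. Per kb of exon in Hand2 wild-type buds, Hmgb2 was highest at 252.7 CPM per kb, followed by Sap30 at 50.7, Spcs3 at 31.3, Dctd at 27.7 and Tenm3 at 24.3 CPM per kb. In this order the library values of Dctd and Tenm3 overlapped, and those of the other adjacent pairs did not. The median of the 39 protein-coding genes was 4.09 CPM per kb, and that of the 13 other genes was 0.216 CPM per kb. Gm34030 stood at 2.62 CPM per kb, the highest of these 13. At the low end, March1 was at 0.0146 CPM per kb. SEs of log2 fold changes ran from 0.029 to 0.651 among the 47 genes counted in all 6 libraries.

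**Figure D3:**
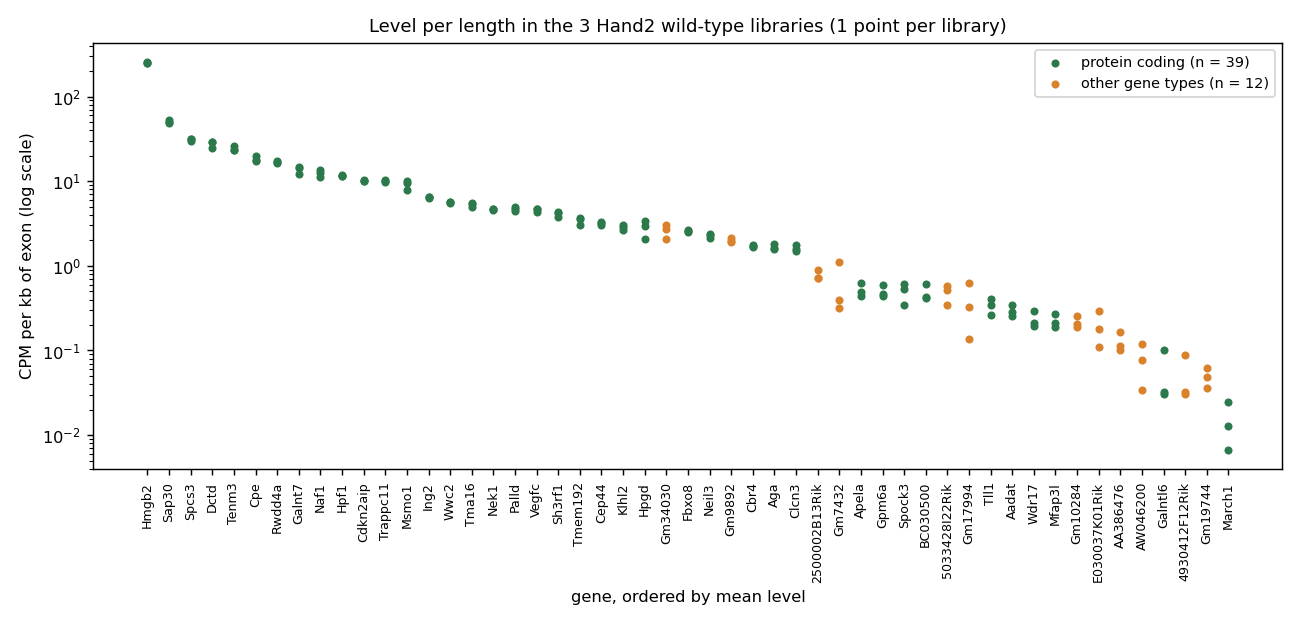
Level per kb of exon (CPM per kb, log axis) of 51 neighbouring genes in each of the 3 Hand2 wild-type libraries, ordered by mean; green is protein coding, orange other gene types, and Gm45827 is not drawn because all 3 values are 0. Hmgb2 stands first at 252.7 CPM per kb and most non-coding genes lie below 1.

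In the Tbx3 series 43 of the 52 neighbours could be tested, and 0 of these were called by the same test. Of all 15130 genes tested there 1.01% were called, so 0 of 43 lies near that share. An unadjusted edgeR p under 0.05 was found for 7 of the 43 and for 2159 of all 15130 genes. DESeq2 called 2 (3.64% of all genes), limma-voom 0 and the fit without a low-count filter 2 (1.81% of all genes). Without Tbx3-deficient library 1 the edgeR test called 1 (1.43% of all genes). Clcn3 was at 27.6, 27.2 and 28.5 CPM in wild-type and 31.7, 45.4 and 42.8 CPM in deficient buds (log2 0.53, SE 0.124, adjusted p = 0.112). Wdr17 was at 0.854, 0.996 and 0.96 CPM in wild-type and 1.75, 1.83 and 1.41 CPM in deficient buds (log2 0.83, SE 0.231, adjusted p = 0.162). These were the lowest adjusted p and the largest log2 difference of the 43. SEs of the 43 log2 differences ran from 0.0447 to 0.487 with a median of 0.108. The median was 0.101 among the 47 genes in the Hand2 comparison. That set also holds 4 genes not tested in the Tbx3 series, so the 2 medians do not compare the same genes.

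The difference between the effects in the 2 series was tested in 50 of the neighbours and called in 2, where 1.68% of all 17360 genes were called. Gm34030 rose by 1.73 more on the log2 scale in the Hand2 comparison than in the Tbx3 comparison (SE 0.233, adjusted p = 0.00607), and this held in all 20 other fits. For Ing2 the difference was -0.50 (SE 0.0955, adjusted p = 0.0273). Ing2 was at 18.3, 16.4 and 16 CPM in Tbx3 wild-type and 19.9, 19.6 and 20.8 CPM in Tbx3-deficient buds, the opposite order to that in the Hand2 series. Its difference lost the call without Hand2 wild-type library 1, Hand2-deficient library 1, Tbx3 wild-type library 2 or 3 or Tbx3-deficient library 2 or 3. In those fits the adjusted p ran up to 0.073. A replicate block also ended the call of Ing2 (adjusted p = 0.143, edgeR). Gm45827 could not be tested for the difference. For the other 8 genes called in the Hand2 comparison it did not pass the test, among them Dctd (-0.57, adjusted p = 0.0737), Tma16 (-0.36, adjusted p = 0.0901) and Cbr4 (0.40, adjusted p = 0.128). Stage, alleles and depth differ together between the 2 series, and their parts cannot be told apart.

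**Figure D4:**
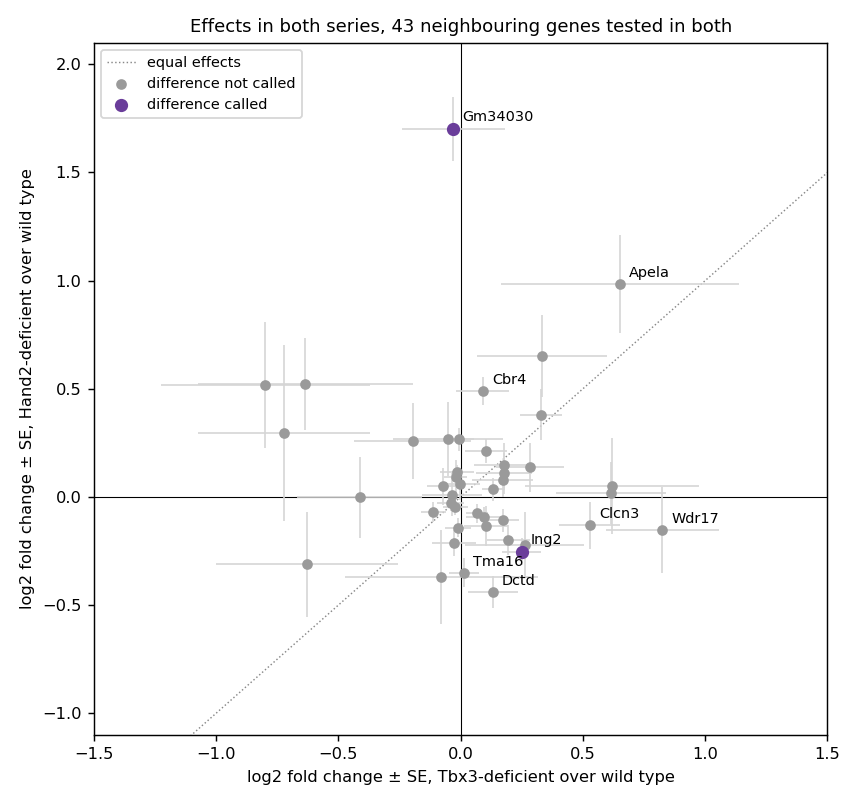
Log2 fold change (± SE, n = 3 per group) in the Hand2 comparison against that in the Tbx3 comparison for the 43 neighbouring genes tested in both; the dotted line marks equal effects and purple points are the genes whose effects differ at an adjusted p under 0.05. Gm34030 stands far above the line at 1.70 against -0.03, and Ing2 lies below it at -0.25 against 0.25.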

How the data were processed

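RNA was measured by sequencing of 12 forelimb bud libraries. The authors deposited expected counts per Ensembl gene, not normalised. The submitters' processing notes name FastQC 0.11.4, STAR 2.5.2, RSEM 1.3.0 and mm10, and the labels' protocols a SMARTer kit with single-end reads; strand is not given in the sources used here. Of 53465 genes, 53360 were matched by identifier to GENCODE M21 (GRCm38), and a gene's start is its lowest coordinate. By strand-aware starts 53 genes would qualify, all 52 among them.

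Rounded expected counts were fitted with edgeR 4.0.16 in R 4.3.3: TMM, filterByExpr (minimum count 10, minimum total 15), quasi-likelihood F test, and p-values adjusted by Benjamini-Hochberg across every gene tested, with calls at an adjusted p under 0.05. Mutants were compared with wild types of the same series, and the difference of effects in a fit of all 12 libraries; the 2 comparisons share no library. Standard errors were taken as log2 fold change over the root of F. Alternatives were DESeq2 1.42.0, its size factors in edgeR, limma-voom (limma 3.58.1), no low-count filter, a sex covariate, a replicate block, removal of ribosomal RNA and mitochondrial genes, each library left out, and other windows; thinning to the Tbx3 depth was chosen after seeing the data. Totals of 23.3 to 68.6 M (1e6) set the precision; with no molecular identifiers, reads can be copies of 1 molecule. Shared 31-base words were counted between spliced transcripts.

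Named were called genes, the 5 nearest on each side, the 5 highest per kb, the 10 largest changes, those next to the count minimum and up to 4 per role list. Some further list genes are given by level. Members and lists were chosen with earlier results of these data known. The fits were tested on simulated data.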

Additional observations from a re-analysis of the deposited data

Results flagged for a closer look

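For 2 genes the Hand2 effect and the Tbx3 effect differed by the test of the difference itself. The difference was 1.73 on the log2 scale for Gm34030, which was higher in Hand2-deficient buds and level in Tbx3-deficient buds. It was -0.50 for Ing2, which was lower in Hand2-deficient and higher in Tbx3-deficient buds than in the respective wild types. The Ing2 effect in the Tbx3 series did not pass the test alone (log2 0.25, adjusted p = 0.213, edgeR).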

How the results depend on the processing

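The number of neighbours called in the Hand2 comparison was 11. It was 10 with DESeq2 size factors, limma-voom or no ribosomal RNA and mitochondrial genes. DESeq2 called 12, of which 8 were shared with the 11, and 19.8% of all genes against 10.5%. It was 8 without a low-count filter (5.35% of all genes) and 6 after thinning to the Tbx3 depth (7.87%, chosen after seeing the data). It was 2 with the sex covariate (3.01%) and 1 with a replicate block (0.921%). With 1 library left out it was 1 to 11, where 1.21% to 12.4% of all genes were called. A window of 5 Mb gave 3 of 30 genes and one of 20 Mb gave 23 of 234, beside the 10.5% of all genes. In the Tbx3 comparison it was 0, with 2 under DESeq2, 2 without the filter and 0 to 1 with 1 library left out. For the difference of effects it was 2, with 7 under DESeq2 (4.97% of all genes against 1.68%) and 1 with the replicate block (0.397%). With 1 library left out it was 1 to 4, where 0.667% to 1.81% of all genes were called. It was 1 of 29 tested genes for 5 Mb and 4 of 227 for 20 Mb. Between libraries of the same replicate number, deviations from the group means correlated at -0.19, 0.05 and 0.11 in the Hand2 series. The values were 0.082, 0.023 and -0.022 in the Tbx3 series. Not every library correlated best with its own number, but with 3 libraries per group these values cannot exclude a pairing.

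Directions were followed over the fits for genes called or named with a test, not for every neighbour. Among the genes followed, directions turned only in those that were never called. Gpm6a (main log2 value -0.0028) was 0.071 with the sex covariate and 0.00037 without the filter, and ran from -0.13 to 0.13 with 1 library left out. 2500002B13Rik (0.019) was -0.20 after thinning and ran from -0.037 to 0.13 with 1 library left out. Over the same left-out fits Spcs3 (0.035) ran from -0.023 to 0.067 and Cep44 (0.06) from -0.0032 to 0.095. Among called genes, March1, Gm17994 and Gm45827 rest on the fewest counts, all under 1 CPM.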

Other observations

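One gene outside the window, 16.6 Mb from the Hand2 start on the lower-coordinate side, was chosen after its values were seen. Gm45660, a processed pseudogene with 151 bases of exon, had 1190.08, 1211.66 and 1152.61 counts in the Hand2 wild-type libraries and 0 in all 3 deficient ones. In the Tbx3 series it had 0, 396.6 and 483.14 counts in wild-type and 0, 599.44 and 529.78 counts in deficient buds, so it was at 0 in 1 library of each group there. Within the window, Gm45827 had the reverse pattern in the Hand2 series, with 0 counts in wild-type buds only.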
